A study of Mus musculus with 9 samples.

Results

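The axon guidance ligands and receptors were taken from the gene table as every symbol that starts with Sema (semaphorins), Plxn (plexins), Epha or Ephb (Eph receptors), Efna or Efnb (ephrins), Robo, Unc5, or Slit or Ntn (netrins) followed by a digit, together with Nrp1, Nrp2 (neuropilins) and Dcc. This gave 68 of 22601 genes, of which 33 encode ligands and 33 receptors. The other 2, Unc50 and Unc5cl, were picked up by the start of their symbols, are not netrin receptors and are counted apart. The members were followed in cells of the central amygdala of wild-type (WT) B6 mice, microdissected and dissociated from acute slices, with cells of several slices pooled. The data form 9 samples of 1 group, with no treatment, so every comparison lies between kinds of neuron within the same samples. Of 829 cells, 810 were inhibitory neurons, 82 to 95 in each sample, with a median of 126576 gene counts. They carried at least 1 count per 10000 gene counts of Gad1, Gad2 or Slc32a1, which make or load the transmitter GABA, and less than that of the glutamate transporter genes Slc17a7 and Slc17a6. A neuron was called positive for any gene at the same level, 1 count per 10000.

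Guidance molecules steer growing axons and, in the mature brain, take part in shaping and maintaining synapses. Secreted class 3 semaphorins act through neuropilins that bind the ligand and plexins that signal, whereas class 4, 5 and 6 semaphorins sit in the membrane and bind plexins directly. Ephrins are membrane-bound ligands of Eph receptors, Slits are secreted ligands of Robo receptors, and netrins act through Dcc and the Unc5 receptors. The neurons were split by 5 genes that mark kinds of central amygdala neuron: Prkcd (protein kinase C delta), Sst (the peptide somatostatin), and the transcription factors Isl1, Nr2f2 and Foxp1. There were 343 Prkcd-positive, 148 Sst-positive, 76 Isl1-positive, 116 Nr2f2-positive and 167 Foxp1-positive neurons, and 169 neurons carried at least 2 of the 5 markers.

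Most neurons carried both sides of the guidance system. A neuron was positive for 1.77 ± 0.203 ligand genes and 3.46 ± 0.174 receptor genes (mean ± SD over samples, n = 9). At least 1 ligand gene was positive in 86.3% ± 4.66 of neurons, at least 1 receptor gene in 97.8% ± 1.97, and both in 84.5% ± 5.20 (SD, n = 9). The 68 genes were spread unevenly: 14 were positive in at least 10% of neurons, 32 in 1 to 10% and 22 in under 1%. Among the last were 5 genes positive in no neuron, Epha1, Ephb3, Sema3d, Sema7a and Unc5cl. A count of 0 in 810 neurons allows a share of up to 0.370%, and this limit and the intervals given further on cover counting error only. No source used here says whether longer transcripts yield more counts, so shares are not read as an order of levels between genes.

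The ephrin and Eph families held the most widely detected members on both sides. Among ligands, Efnb3, which encodes the transmembrane ephrin-B3, was positive in 52.6% ± 5.86 of neurons, with 44.0% in the lowest sample, 51.2% in the median sample and 62.0% in the highest. Sema4f, a class 4 transmembrane semaphorin, was positive in 20.2% ± 4.07 (11.9% to 25.3% over samples), and the netrin gene Ntn3 in 11.9% ± 2.50. The ligands Slit2 and Efna3, the most often positive Slit and ephrin-A genes, reached 6.74% ± 3.89 and 6.47% ± 2.48. Each of these was the most often positive gene of its family.

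Among receptors, Epha5, a receptor of the GPI-anchored ephrin-A ligands, was positive in 65.5% ± 6.64 of neurons, with a range of 55.8% to 75.0% over the 9 samples. Epha4, which binds ephrins of both the A and the B class, was positive in 53.7% ± 4.07 (46.2% to 60.5%). Plxna2, a plexin of the class that neuropilins pair with, was positive in 34.1% ± 5.56 and the netrin receptor Unc5d in 29.0% ± 4.49. Robo2, a Slit receptor, was positive in 16.3% ± 3.96, and Nrp1, the neuropilin that binds Sema3a, in 15.3% ± 5.44. The most often positive EphB receptor, Ephb1, was positive in 89 of 810 neurons, while Dcc, the attractive netrin receptor, was positive in 1.44% ± 1.20. Unc50 was positive in 29.2% of neurons.

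**Figure D1:**
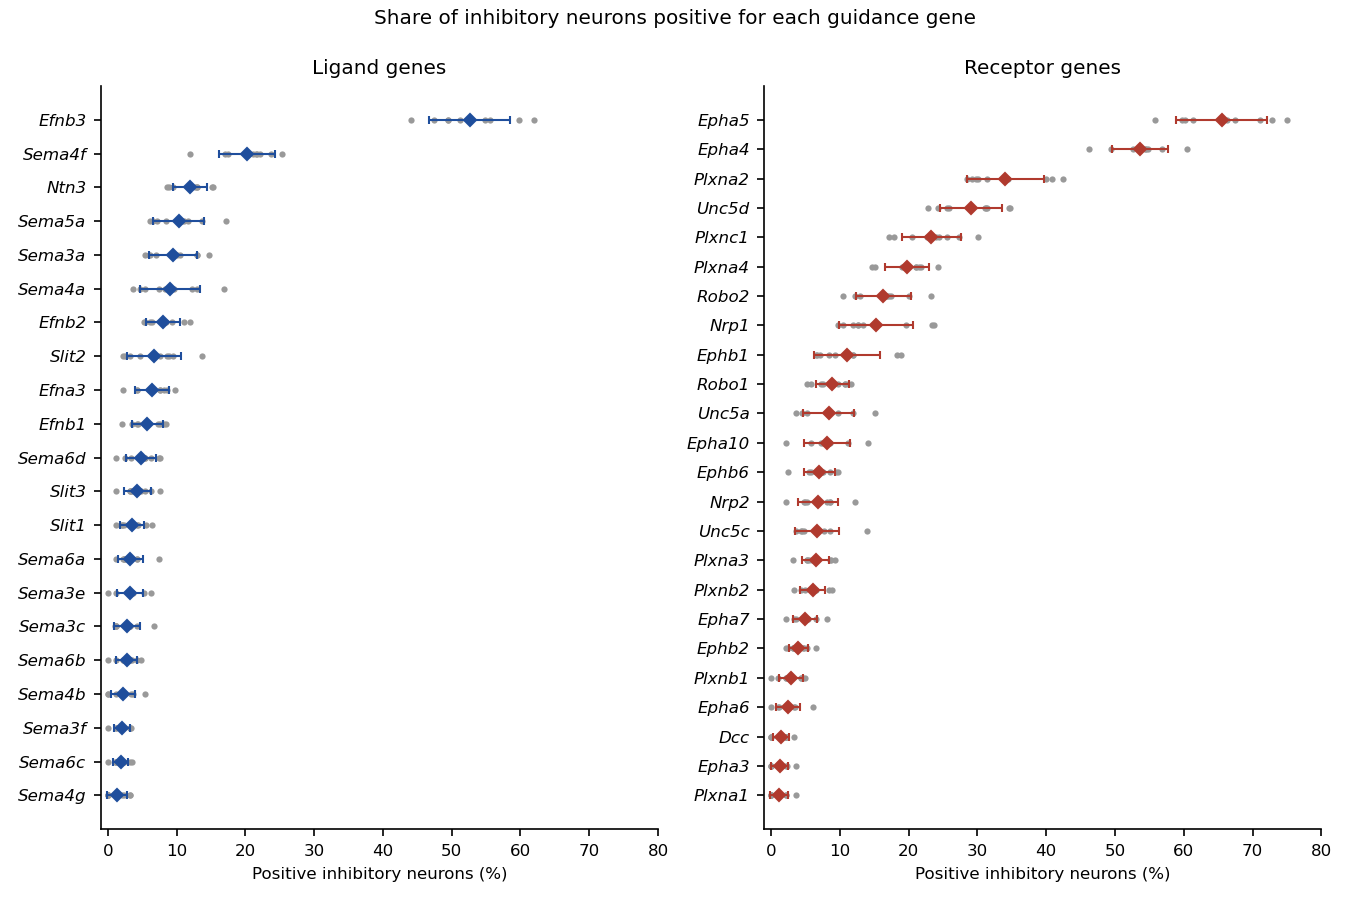
Share of inhibitory neurons positive for each ligand gene (left, blue) and receptor gene (right, red), for genes positive in at least 1% of neurons. Grey points are the 9 samples, diamonds the mean and bars 1 SD; Efnb3 lies at 52.6% among ligands, and Epha5 and Epha4 at 65.5% and 53.7% among receptors.

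For each split, counts were summed per sample and class and tested with edgeR's quasi-likelihood test over all genes, with the sample as a block. The threshold was an adjusted p of 0.05 (Benjamini-Hochberg). Levels are given as CPM, the counts of a gene scaled to all gene counts of a class in a sample. Fold changes are those of the fit and differ from ratios of the median CPM. The 6 comparisons made 30 calls on 17 members, 8 ligands and 9 receptors, and 8 of these were called in at least 2 comparisons. The comparisons share neurons, so a member called in several of them was not measured anew each time.

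Prkcd-positive neurons had lower levels of several semaphorin and Eph receptor genes and of Slit2, Nrp1 and Robo2, and higher levels of 2 ephrin-B genes. No other Slit, neuropilin or Robo gene was called. Of 57 members tested, 14 fell and 2 rose in Prkcd-positive against other neurons. Over all 14280 genes tested, 14.3% were called, 8.6% lower and 5.67% higher. The members' median log2 fold change was −0.67, against −0.07 over all genes. Among 29 ligands, 6 fell and 2 rose, and among 27 receptors 8 fell and none rose.

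Sema3a, which encodes the secreted ligand of the Nrp1 and plexin-A complex, was among the ligands that fell. In Prkcd-positive neurons its level was 1.86 CPM in the lowest sample, 3.60 in the median sample and 7.14 in the highest. In the other neurons it was 16.7, 40.3 and 60.9 CPM. The 9 samples of the classes did not overlap, and Sema3a fell by 3.45 on the log2 scale (SE 0.38, edgeR adjusted p = 3.01e-05). It was positive in 1.16% ± 1.39 of Prkcd-positive and 15.4% ± 5.42 of other neurons (SD, n = 9).

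Slit2, the Robo ligand, showed a difference of the same kind. Its lowest, median and highest levels were 0, 0.360 and 3.99 CPM in Prkcd-positive and 9.18, 25.9 and 45.1 CPM in other neurons. These ranges did not overlap, and Slit2 fell by 5.17 on the log2 scale (SE 0.72, edgeR adjusted p = 0.00022). The share of positive neurons was 0.559% ± 1.12 against 10.9% ± 5.43.

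Of the transmembrane class 6 semaphorins, ligands of plexin-A receptors, Sema6a, Sema6c and Sema6d fell as well. Sema6b, positive in 2.73% ± 1.52 of all neurons, was not called. Sema6c had 0, 0 and 2.57 CPM (lowest, median, highest) in Prkcd-positive and 2.96, 7.40 and 13.6 CPM in other neurons, again without overlap. It fell by 4.58 on the log2 scale (SE 1.22, edgeR adjusted p = 0.0213), but was no longer called when Mbp-positive neurons were left out. Sema6a had a median of 1.41 CPM in Prkcd-positive and 16.6 CPM in other neurons and did not overlap between them (−3.79, SE 0.76, adjusted p = 0.00352). Sema6d, with medians of 2.31 and 19.5 CPM, fell by 3.52 (SE 0.64, adjusted p = 0.00176). Among class 4 genes, Sema4a fell by 3.61 (SE 0.69, adjusted p = 0.00252) and was positive in 1.03% ± 2.06 against 14.4% ± 6.80 of neurons.

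A pair of neurons in sample 5, both Prkcd-negative, were positive for at least 4 of 10 oligodendrocyte genes and held 99.1% of the neurons' Mobp counts. They also held 556 of the Sema6a counts and 103 of the Sema4a counts, but none of the Slit2, Nrp1 or Sema6c counts. Without them Sema6a fell by 3.66 on the log2 scale (edgeR adjusted p = 0.00255). The summed level of the 10 oligodendrocyte genes was 139 to 217 CPM over samples in Prkcd-positive and 68.0 to 5061 CPM in other neurons. The defining genes Mobp, Mog, Mag and Cldn11 were positive in 2 or 3 neurons each. Mbp, which encodes a myelin protein, was positive in 31.1% ± 7.49 of Prkcd-positive and 22.6% ± 5.86 of other neurons. Its part in these results was not tested beyond leaving such cells out.

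Among receptors, the neuropilin Nrp1 was lower in Prkcd-positive neurons of every sample. Its lowest, median and highest levels were 7.99, 13.7 and 44.5 CPM in Prkcd-positive and 44.0, 54.6 and 77.7 CPM in other neurons. The ranges overlapped only between 44.0 and 44.5 CPM, and Nrp1 fell by 1.64 on the log2 scale (SE 0.25, edgeR adjusted p = 0.000524). Nrp1 was positive in 6.52% ± 4.40 against 21.9% ± 8.18 of neurons. The Slit receptor Robo2 fell by 1.37 (SE 0.23, adjusted p = 0.000942) and was positive in 8.63% ± 5.38 against 22.3% ± 8.73.

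Of 10 Eph receptors tested 4 fell, beside 8 of all 27 receptors. The ephrin-A receptor Epha6 had 0, 0.286 and 8.73 CPM in Prkcd-positive and 0.286, 8.58 and 20.9 CPM in other neurons, so the ranges overlapped, although the level was lower in 9 of 9 samples. It fell by 4.27 on the log2 scale (SE 0.86, edgeR adjusted p = 0.00366), a call lost in the fit without the sample block. Epha7, another ephrin-A receptor, fell by 2.49 (SE 0.61, adjusted p = 0.0137). Epha10 and Ephb6, members of the family without an active kinase, fell by 1.63 (SE 0.35, adjusted p = 0.00559) and 1.88 (SE 0.51, adjusted p = 0.0230). The Ephb6 call was lost without sample 6, 8 or 9, with adjusted p up to 0.0561, and with equal cell numbers.

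The remaining receptor calls rest on few counts. Plxnd1, the plexin that binds Sema3e, had 2 counts in Prkcd-positive and 147 in other neurons, a ratio of 49.8 with a 95% counting interval of 13.5 to 415 (edgeR adjusted p = 0.0156). No Prkcd-positive neuron of 343 was positive for it, which allows up to 0.875%, and only 3 other neurons were, which held 54.4% of the counts there. Without sample 7 it was not called (adjusted p = 0.0615). Dcc fell by 4.47 on the log2 scale (SE 1.41, adjusted p = 0.0481), a call that was lost when any of samples 1, 2, 3, 4, 5, 7 and 9 was left out, with adjusted p up to 0.128, and also with no filter, no sample block, thinned counts or equal cell numbers. Dcc was positive in 1 Prkcd-positive and 11 other neurons.

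The ligands that rose in Prkcd-positive neurons were both ephrin-B genes. Efnb1 had a median of 28.0 CPM, from 9.10 to 39.7, against a median of 8.26 CPM, from 2.97 to 14.7, in other neurons. The level was higher in 8 of 9 samples, and Efnb1 rose by 1.72 on the log2 scale (SE 0.39, edgeR adjusted p = 0.00835). It was positive in 9.31% ± 5.73 against 2.76% ± 2.21 of neurons. Efnb3 rose by 0.37 (SE 0.10, adjusted p = 0.0278), with 57.5% ± 7.65 against 49.1% ± 5.62 positive. The Efnb3 call was lost without sample 1, 2, 3, 4 or 9, with adjusted p up to 0.0674.

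Several of the most widely detected receptors did not pass in this comparison. The log2 fold change was −0.03 for Epha4 (SE 0.10, edgeR adjusted p = 0.889), −0.20 for Epha5 (SE 0.15, adjusted p = 0.439), 0.07 for Plxna2 (SE 0.17, adjusted p = 0.846) and 0.01 for Unc5d (SE 0.26, adjusted p = 0.983). A p that misses the threshold does not show that the classes are equal.

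**Figure D2:**
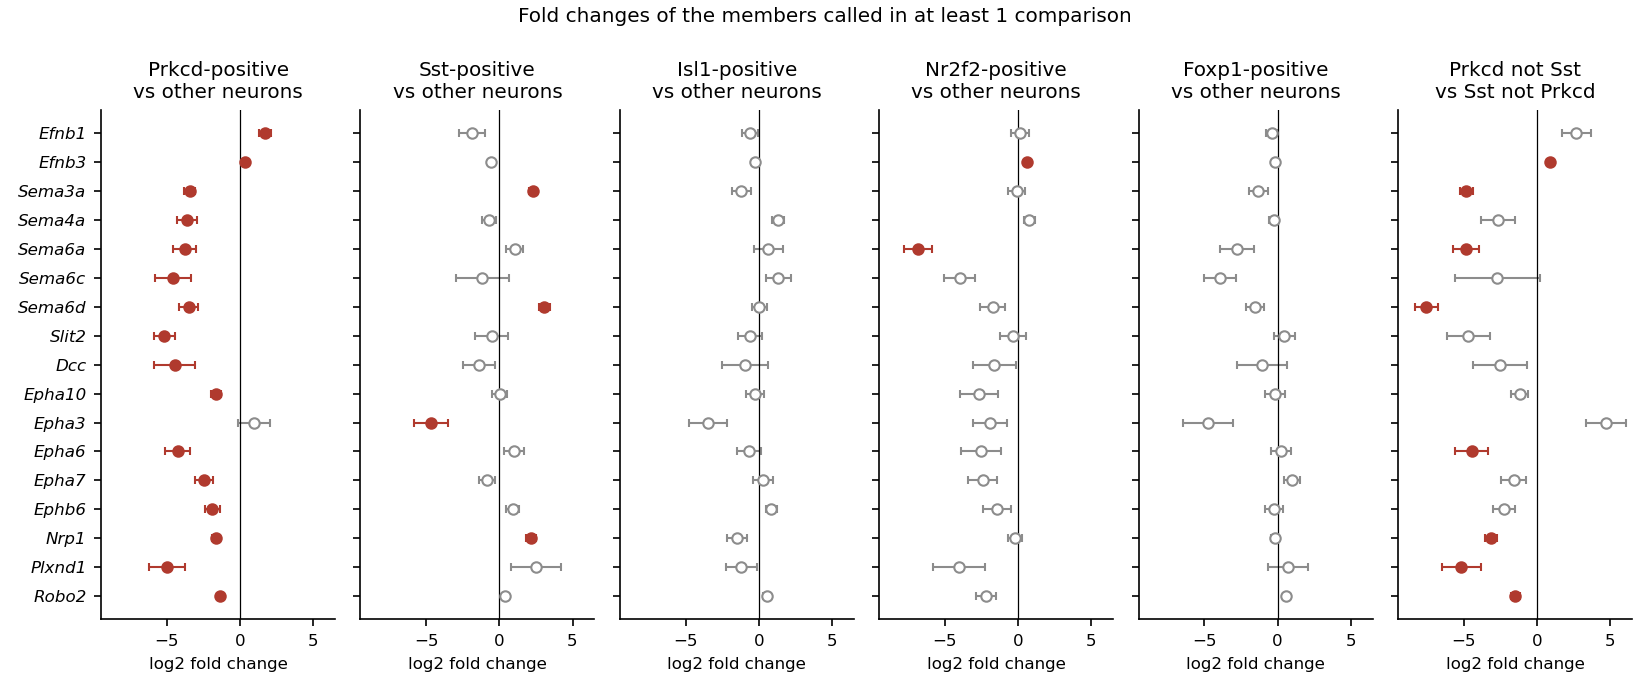
Fitted log2 fold change of the 17 members called in at least 1 comparison, 1 panel per comparison, with ligands above receptors; bars are 1 SE, filled red points passed an edgeR adjusted p under 0.05 and open grey points did not. Most filled points lie left of 0 in the Prkcd panel, while Sema3a, Sema6d and Nrp1 lie right of 0 in the Sst panel; the points of Plxnd1 in the Prkcd panels and of Sema6a in the Nr2f2 panel rest on 1 or 2 counts in the lower class and depend on the prior count.

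Sst-positive neurons carried more of 2 semaphorins and of the neuropilin that binds one of them. Of 56 members tested against other neurons, 3 rose and 1 fell. Over all 14176 genes, 3.91% were called, 1.69% higher and 2.22% lower. The median log2 fold change was −0.32 over the members and −0.27 over all genes.

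Sema6d had 24.0, 53.1 and 81.0 CPM (lowest, median, highest sample) in Sst-positive and 2.40, 6.41 and 20.9 CPM in other neurons. Every Sst-positive value exceeded every other value. Sema6d rose by 3.08 on the log2 scale (SE 0.35, edgeR adjusted p = 0.000179), and 18.6% ± 6.04 against 1.78% ± 2.01 of neurons were positive.

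Sema3a had 30.0, 77.1 and 133 CPM in Sst-positive and 6.60, 13.5 and 26.6 CPM in other neurons, also without overlap. It rose by 2.29 (SE 0.25, edgeR adjusted p = 0.000113) and was positive in 29.3% ± 15.2 against 5.08% ± 1.70 of neurons. With equal cell numbers per class it was no longer called. Nrp1 had 23.1, 128 and 153 CPM in Sst-positive and 11.1, 24.0 and 45.5 CPM in other neurons; 1 sample was low in the Sst-positive class, so the ranges overlapped. It rose by 2.17 (SE 0.34, adjusted p = 0.00312), with 42.9% ± 18.6 against 9.35% ± 4.87 of neurons positive.

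The shares of the 3 genes that rose were also taken with every neuron thinned to 50000 counts, which left out 5 Sst-positive and 17 other neurons. The Sst classes were set again on the thinned counts, so a neuron could change class. The thinned shares were 18.3% against 1.95% for Sema6d, 26.2% against 5.29% for Sema3a and 46.7% against 10.4% for Nrp1. The ephrin-A receptor Epha3 was the member that fell. It had 0, 0 and 0.654 CPM in Sst-positive and 0.150, 3.14 and 8.76 CPM in other neurons, with 4 counts against 335. It fell by 4.67 on the log2 scale (SE 1.14, edgeR adjusted p = 0.0364), but the call was lost when any of samples 1, 2, 3, 6, 7, 8 and 9 was left out, with adjusted p up to 0.0879, and also with thinned counts and without Mbp-positive neurons. Mbp was positive in 34.5% ± 7.54 of Sst-positive and 24.3% ± 6.13 of other neurons. No Sst-positive neuron of 148 was positive for Epha3, which allows up to 2.03%.

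Since Sema3a, Sema6d and Nrp1 were each higher in Sst-positive neurons, their promoters are shown from 250 bases before to 50 after the start, from RefSeq on GRCm38.p6. The genes were chosen after their values were seen. The count files name another build, NCBIM37, so these coordinates are those of RefSeq alone. Promoters matched 58 of the 68 members by symbol. Capitals mark matches on either strand to 3 short motifs: AGGTCA, the nuclear receptor half-site of the family of Nr2f2; TGTTTA, a forkhead core of the family of Foxp1; and TAAT, a homeodomain core of the family of Isl1. Sema3a lies on the plus strand at chr5:13396534-13396833, Nrp1 on the plus strand at chr8:128358823-128359122 and the first of the Sema6d entries on the plus strand at chr2:124089719-124090018.
Sema3a: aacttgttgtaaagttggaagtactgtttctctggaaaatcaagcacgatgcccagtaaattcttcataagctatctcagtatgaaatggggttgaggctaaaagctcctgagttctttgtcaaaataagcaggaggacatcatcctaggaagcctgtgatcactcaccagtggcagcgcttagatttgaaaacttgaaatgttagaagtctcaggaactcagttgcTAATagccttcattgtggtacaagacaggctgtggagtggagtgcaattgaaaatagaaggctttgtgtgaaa
Nrp1: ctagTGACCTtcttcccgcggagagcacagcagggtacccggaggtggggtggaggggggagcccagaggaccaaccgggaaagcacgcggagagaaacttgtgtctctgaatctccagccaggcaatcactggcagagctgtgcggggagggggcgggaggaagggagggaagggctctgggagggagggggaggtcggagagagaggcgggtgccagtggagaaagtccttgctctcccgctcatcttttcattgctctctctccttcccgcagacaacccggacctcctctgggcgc
Sema6d: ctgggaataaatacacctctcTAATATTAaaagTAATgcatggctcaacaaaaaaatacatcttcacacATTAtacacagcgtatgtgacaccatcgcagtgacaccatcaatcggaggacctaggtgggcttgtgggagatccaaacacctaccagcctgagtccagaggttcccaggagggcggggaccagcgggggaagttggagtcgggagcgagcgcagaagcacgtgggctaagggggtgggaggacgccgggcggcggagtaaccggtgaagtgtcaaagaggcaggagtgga
The Sema3a window has a GC content of 41.3% with 2 CpG and holds 1 TAAT match. The Nrp1 window has 64.0% GC with 14 CpG and holds 1 AGGTCA match. The Sema6d window shown has 54.3% GC with 14 CpG and holds 4 TAAT matches, of which a pair lie side by side. Another Sema6d entry, at chr2:124653331-124653630, has 46.7% GC with 6 CpG and holds 1 TAAT match. Which start these neurons use was not tested. The median over all 32851 promoters was 52.7% GC with 7 CpG. TAAT is in 58.0% of all promoters and 41.9% of the 74 entries of members, AGGTCA in 16.3% and 13.5%, and TGTTTA in 13.4% and 2.70%. No motif was shared by the 3 windows printed above, and a match is a description of letters, not a bound site.

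Set directly against each other, Prkcd-positive neurons without Sst (320) and Sst-positive neurons without Prkcd (125) differed in 8 of 51 members tested, 7 lower and 1 higher in the Prkcd class. Over all 13292 genes, 7% were called, 3.18% lower and 3.81% higher. The median log2 fold change of the members was −0.14, against 0.23 over all genes. The 23 neurons positive for both markers entered neither class.

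The differences of Sema6d and Sema6a between these classes had been seen before in these data. The ligand Sema6d did not overlap between the samples of the classes. Its lowest, median and highest levels were 0, 0 and 2.57 CPM in the Prkcd class and 32.7, 48.7 and 97.1 CPM in the Sst class, with 19 counts against 1098. It was lower by a log2 fold change of −7.57 (SE 0.79, edgeR adjusted p = 1.98e-05). No neuron of 320 in the Prkcd class was positive, which allows up to 0.938%, against 19.9% ± 6.94 in the Sst class.

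Sema3a had 1.16, 2.39 and 7.14 CPM in the Prkcd class and 36.8, 87.8 and 133 CPM in the Sst class, a log2 fold change of −4.83 (SE 0.46, adjusted p = 8.50e-06) without overlap. Sema6a had 0, 0.475 and 3.42 CPM against 1.45, 31.5 and 38.8 CPM (−4.86, SE 0.90, adjusted p = 0.00297), and 1 Sst-class sample fell within the range of the Prkcd class. Nrp1 was positive in 4.75% ± 3.10 against 46.2% ± 20.8 of neurons, a log2 fold change in level of −3.16 (SE 0.41, adjusted p = 0.00017). Robo2 differed by −1.48 (SE 0.31, adjusted p = 0.00749), a call lost with equal cell numbers and without Mbp-positive neurons.

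In the other direction, Efnb3 was higher in the Prkcd class by 0.86 on the log2 scale (SE 0.15, edgeR adjusted p = 0.0023) in 9 of 9 samples. It was positive in 57.8% ± 8.52 against 37.5% ± 11.3 of neurons. Epha6 (−4.46, SE 1.14, adjusted p = 0.0282) was called in 2 of 9 fits with a sample left out: without any of samples 1, 2, 4, 5, 6, 7 and 8 it was not called, with adjusted p up to 0.0784, nor without the sample block. Plxnd1 had 1 count in the Prkcd class and 67 in the Sst class, a ratio of 163 with a 95% counting interval of 28.3 to 6547 (adjusted p = 0.0366). A single neuron held 49.3% of the 67, and the call was lost without sample 1, 3, 6 or 8, with adjusted p up to 0.0889, by DESeq2 and at the marker level of 3 per 10000. It gave a value in only 7 of the 9 fits with a sample left out and 7 of the 10 alternatives. Slit2 was not called here (−4.68, SE 1.49, adjusted p = 0.0792): its level in the Sst class ranged from 0 to 61.4 CPM.

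**Figure D3:**
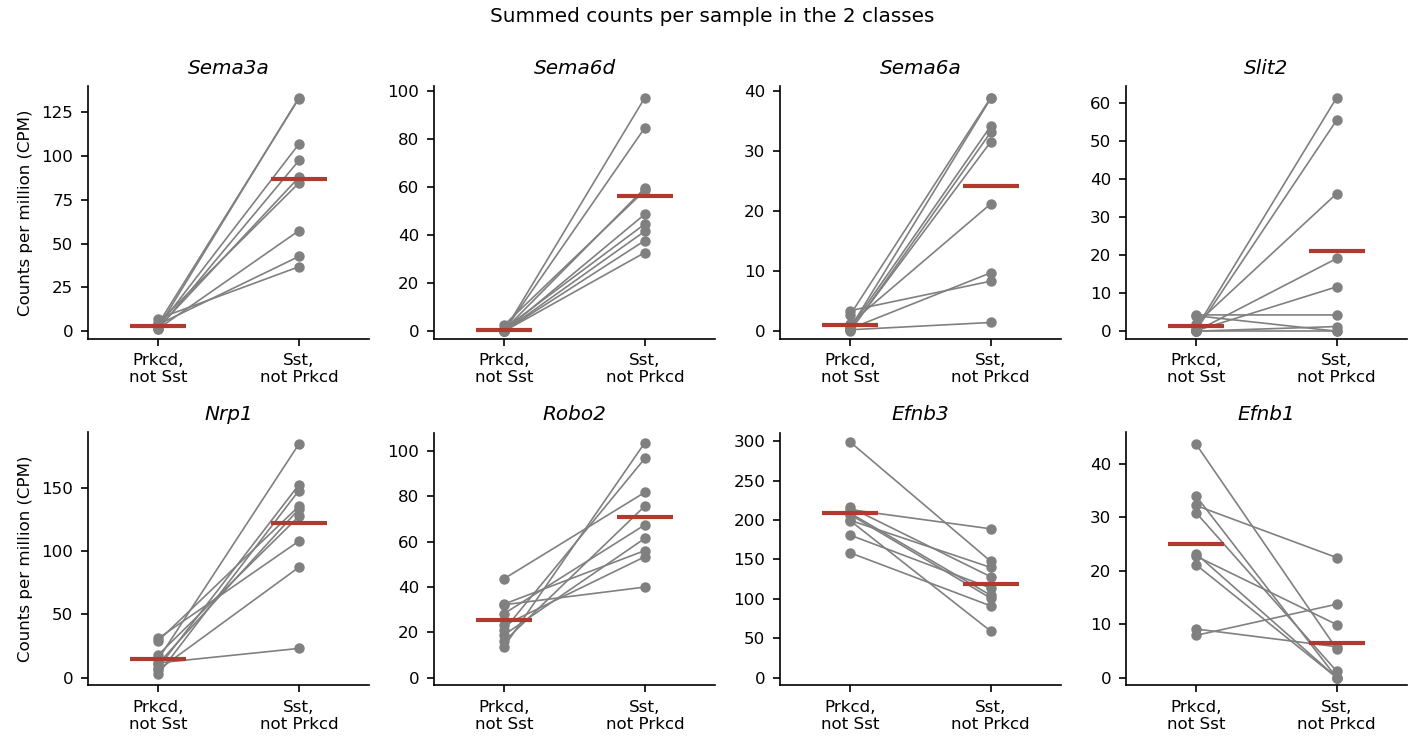
Level of 8 members (CPM, linear axes starting at 0) in Prkcd-positive neurons without Sst and Sst-positive neurons without Prkcd; each line joins the classes of 1 of the 9 samples and red bars are means. Sema3a and Sema6d rise in every sample with no overlap, Efnb3 falls in every sample, and Slit2 is spread widely in the Sst class.

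In Isl1-positive neurons no member passed among 59 tested by edgeR, where 4.18% of all 14008 genes were called, 2.98% lower and 1.19% higher. There were 7 members with an unadjusted p under 0.05, and DESeq2 called 5. The members' median log2 fold change was −0.24 and that of all genes −0.47. Sema5a, a class 5 transmembrane semaphorin, came nearest by edgeR, at a mean of 4.97 CPM against 28.0 CPM (log2 fold change −3.82, SE 1.03, adjusted p = 0.0514), and 1.89% against 11.1% of neurons were positive. Sema4a was positive in 19.2% of Isl1-positive and 7.92% of other neurons (log2 fold change 1.28, SE 0.41, adjusted p = 0.0884). Sema5a and Sema4a in this comparison were named after their values were seen. Isl1-positive neurons had more counts, a median of 169576.5 against 123695, and were deeper in 9 of 9 samples.

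In Nr2f2-positive neurons 1 member fell and 1 rose of 55 tested, where 1.63% of all 13708 genes were called, 1.36% lower and 0.277% higher. The median log2 fold change was −0.79 over the members and −0.39 over all genes. Sema6a had 0, 0 and 0.511 CPM in Nr2f2-positive neurons (lowest, median, highest sample) and 7.33, 10.5 and 35.4 CPM in other neurons, with no overlap. It had 2 counts against 1784, a ratio of 129 with a 95% counting interval of 35.8 to 1069 (edgeR adjusted p = 0.00274). Of the 1784 counts, 556 lay in the 2 neurons of sample 5 that were positive for at least 4 oligodendrocyte genes. A single neuron held 22.9%, so the ratio and the interval rest in part on few cells. The call was kept when those 2 neurons were left out. No Nr2f2-positive neuron of 116 was positive for it, which allows up to 2.59%, against 3.79% ± 1.93 of other neurons. The Sema6a call was lost with equal cell numbers and at the stricter marker level of 3 counts per 10000.

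Efnb3 rose in Nr2f2-positive neurons by 0.61 on the log2 scale (SE 0.13, edgeR adjusted p = 0.0368), with 66.3% ± 7.05 against 50.5% ± 6.24 of neurons positive. The level was higher in 8 of 9 samples and the share in 9. The call was lost when any of samples 1, 2, 3, 4, 6, 7 and 9 was left out, with adjusted p up to 0.102, and also with no filter, with equal cell numbers, at the marker level of 3 and without Mbp-positive neurons. Of the Nr2f2-positive neurons 40.5% were also Prkcd-positive, so this split and that by Prkcd share neurons.

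In Foxp1-positive neurons no member passed among 56 tested by edgeR, where 0.235% of all 14038 genes were called, 0.0997% lower and 0.135% higher. There were 9 members with an unadjusted p under 0.05, and DESeq2 called 2. The members' median log2 fold change was −0.35 and that of all genes −0.22. Slit2 was positive in 12.3% of Foxp1-positive and 4.78% of other neurons, with a log2 fold change in level of 0.45 (SE 0.71, adjusted p = 0.848).

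To separate the markers, neurons were also sorted by carrying 1 of the 5 alone (226 with Prkcd, 93 with Sst, 46 with Isl1, 51 with Nr2f2 and 80 with Foxp1) or none (145). Shares were averaged over the samples with at least 5 such neurons, which left 5 samples for Isl1 and Nr2f2, 8 for Sst and Foxp1 and 9 for the others. These shares are a description, with no test.

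Nrp1 was positive in 46.1% ± 25.0 of Sst-only neurons and in 5.17% ± 2.82 of Prkcd-only neurons, with 9.91% to 17.0% in the remaining classes. Sema3a followed the same order at the ends, with 33.3% ± 12.8 and 0.932% ± 1.86, and lay between 6.84% and 15.5% elsewhere. Sema6d was positive in 22.5% ± 9.66 of Sst-only neurons and in no Prkcd-only or Foxp1-only neuron, which allows up to 1.33% and 3.75%. Neurons with none of the 5 markers lay between the ends for all of these: 13.2% ± 14.2 for Nrp1, 9.44% ± 8.35 for Sema3a and 5.63% ± 6.63 for Sema6d.

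Sema4a and Slit2 had other patterns. Sema4a was positive in 29.3% ± 14.8 of Isl1-only, 24.9% ± 11.2 of Nr2f2-only and 0.463% ± 1.39 of Prkcd-only neurons, with 7.20% to 14.5% in the rest. Slit2 was positive in 17.7% ± 14.1 of Foxp1-only neurons, 8.6% ± 7.42 of those with no marker and 0.358% ± 1.08 of Prkcd-only neurons. Its receptor gene Robo2 was positive in 29.2% ± 16.4 of Foxp1-only, 27.7% ± 16.9 of Isl1-only and 25.3% ± 17.7 of Sst-only neurons, spreads that overlap widely, and in 6.78% ± 4.20 of Prkcd-only neurons. Efnb3 was detected broadly, from 42.4% ± 17.0 in Sst-only to 70.1% ± 12.1 in Nr2f2-only neurons.

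**Figure D4:**
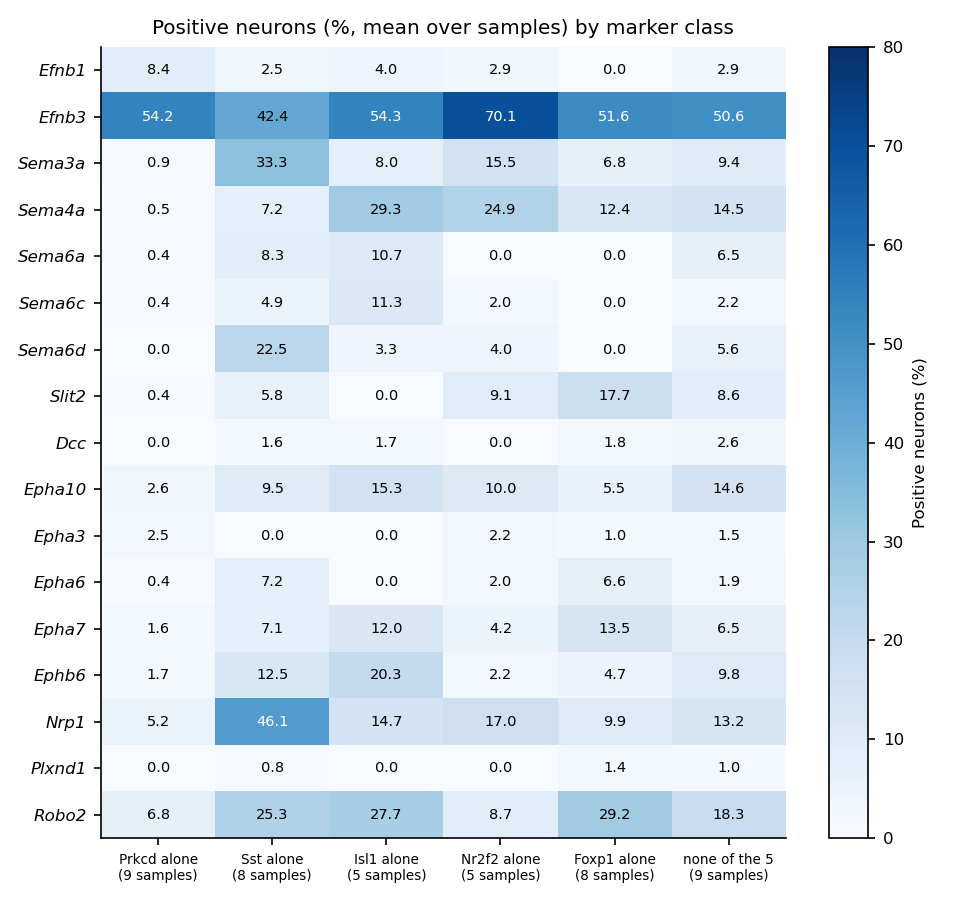
Share of positive neurons (%, mean over samples with at least 5 neurons of the class) for the 17 called members in neurons with 1 marker alone or with none of the 5; darker blue is a higher share and the number of samples stands under each class. The Prkcd column is under 3% for all members but Efnb1, Nrp1, Robo2 and Efnb3, and the Sst column holds the highest shares of Sema3a, Sema6d and Nrp1.

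Whether a ligand and its receptor, or co-receptors, occurred in the same neuron was described for 19 pairs, as neurons positive for both against the number expected if the genes were independent within each sample. Pairs with Efna5 are not analysed here. Nrp1 and its plexin partner Plxna2 were both positive in 50 neurons, with 43.8 expected, and Nrp1 and Plxna4 in 28, with 24.8 expected. The widely detected Epha4 and Efnb3 were both positive in 217 neurons, with 228 expected. Slit2 occurred with Robo2 in 15 neurons, with 8.93 expected, and in excess in 7 of 9 samples, and with Robo1 in 9, with 5.37 expected. The expected numbers take no account of class. Of the positive neurons, 53 of 55 for Slit2 and 102 of 132 for Robo2 were Prkcd-negative, and the part of this in the excess was not tested. Slit1 and Robo1 met in 6 neurons, with 2.69 expected. Dcc and Unc5d, which can form a joint netrin receptor, met in 5 neurons, with 3.32 expected. Sema3e with Plxnd1 and Ntn1 with Dcc met in no neuron, with 0.106 and 0.0851 expected, too few to see either way. Robo1 and Robo2 met in 9 neurons, with 11.9 expected, Nrp2 and Plxna4 in 9, with 10.9, and Sema6a and Plxna2 in 7, with 9.49. Ephb2 and Efnb3 met in 17, with 16.6 expected, Sema6a and Plxna4 in 6, with 5.46, and Nrp2 and Plxna3 in 4, with 3.51. Nrp1 with Plxna1 and Dcc with Unc5c met in 1 neuron each, with 1.37 and 0.878 expected. Sema5a and Sema6d met Plxna1 in no neuron, with 0.775 and 0.403 expected.

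Genes around these ligands and receptors were read from a list of co-receptors, adhesion partners and cytoplasmic effectors, of which 60 of 65 were in the table. In Prkcd-positive neurons 7 of the 60 rose and 14 fell, against the 5.67% and 8.6% of all genes given above. The highest among those that rose were Boc, a co-receptor of the hedgehog family of guidance cues, by 5.33 on the log2 scale (SE 1.26, edgeR adjusted p = 0.0108, 195 counts against 5), the Rac activator Tiam1 by 1.11 (SE 0.13, adjusted p = 3.90e-05) and Dpysl5, a collapsin response mediator, by 0.93 (SE 0.27, adjusted p = 0.0321). Those that fell furthest were Rnd1, a GTPase that binds plexins, by 3.85 (SE 1.15, adjusted p = 0.0382), Chn2, a Rac-inactivating chimaerin, by 2.25 (SE 0.32, adjusted p = 0.000272) and Dscam, a cell adhesion molecule that binds netrin, by 2.18 (SE 0.49, adjusted p = 0.00758).

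In Sst-positive neurons 2 of the 60 rose and 3 fell, 8.33% of the list against 3.91% of all genes. Dscam rose by 1.07 (SE 0.27, edgeR adjusted p = 0.0400) and Ngef, an effector of EphA receptors, by 0.77 (SE 0.13, adjusted p = 0.00445). Dscaml1, the relative of Dscam, fell by 1.75 (SE 0.39, adjusted p = 0.0223), the adhesion molecule Nrcam by 1.18 (SE 0.18, adjusted p = 0.00295) and the Robo effector Srgap3 by 0.68 (SE 0.17, adjusted p = 0.0430). In Prkcd against Sst neurons 59 genes of the list were tested and 11.9% called, against 7% of all genes. Dscaml1 (log2 fold change 2.08) and Nrcam (1.59) were higher, and 5 genes lower, led by Dscam (−2.89), Rgmb (−1.82), a ligand of neogenin, and Ngef (−1.25).

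In Isl1-positive neurons 2 of the 60 rose and 5 fell by edgeR, 11.7% of the list against 4.18% of all genes. Lphn3, an adhesion receptor that binds Flrt and Unc5 proteins, rose by 1.18 (SE 0.18, edgeR adjusted p = 0.00175), and Chl1, of the L1 family, by 1.13 (SE 0.14, adjusted p = 0.000535). Vav3 had 2 counts against 273 in other neurons, a ratio of 19.8 with a 95% counting interval of 5.42 to 164 (adjusted p = 0.0414). Boc had 2 counts against 198, a ratio of 14.3 with an interval of 3.91 to 119 (adjusted p = 0.0395). Tiam1 also fell (adjusted p = 0.00449). In Nr2f2-positive neurons Ngef fell by 0.95 (SE 0.21, adjusted p = 0.0368), the only call among 59 tested, a share of 1.69% beside 1.63% of all genes, and in Foxp1-positive neurons none of 59 tested did by edgeR, with 9 at an unadjusted p under 0.05.

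The samples carry 3 animal numbers, each with 3 date fields. All 30 calls on members kept their sign in each animal number and in each date field. The calls were made on these same 9 samples, of which each level is a part, so this is no separate check of them.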

How the data were processed

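Raw counts per gene symbol and cell were used as the authors deposited them, unit counts, with a metadata table that ties each cell to a sample. Build NCBIM37 and the tool Seurat are named per the submitters' processing notes. The aligner, annotation, strand and any molecular identifiers were not given in the sources used here. Total counts were 8522750 to 22730327 per sample, with 91 spike-in genes dropped. Neurons numbered 810, of which 9 had under 20000 counts (lowest 401), and 19 cells were left out. No doublet caller was run. Of 376 well barcodes, 368 occur in more than 1 sample, each at 1 well position.

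Counts were summed per sample and class (at least 5 cells) and tested with edgeR 4.0.16 in R 4.3.3 (TMM scaling, filterByExpr with the design, quasi-likelihood test, sample as block because both classes come from the same sample). Genes were called at a Benjamini-Hochberg adjusted p under 0.05. No source used here says whether the samples are separate animals. A p-value therefore measures only how far the difference between classes varies over these 9 samples, and that spread may be technical. The members, markers and gene lists were chosen with earlier results of these data known, and the differences of Sema6d and Sema6a between Prkcd and Sst neurons had been seen before.

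Named with values were every called member, the most often positive member of each family, members positive in no neuron, up to 3 called genes of the guidance list per comparison and direction, and a list of 22 pairs, of which 19 are described. Lowest, median and highest samples were given for up to 3 called members per comparison, by absolute fold change, with 1 direction over all samples, and for others where useful. Of the list of 65 guidance genes 60 were used. Alternatives were DESeq2 1.42.0, scaling by median of ratios, no block, no filter, a marker level of 3 per 10000, thinning to 50000 counts (788 neurons), equal cell numbers, leaving out neurons under 20000 counts or positive for Mbp, and leaving out each sample. Leaving out neurons positive for at least 4 oligodendrocyte genes was added after the data were seen. Seed 7 was used for thinning and equal numbers.

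On simulated counts with 100 genes changed 2-fold and 100 changed 4-fold, the Prkcd fit over 14280 genes recovered 43% and 56% with 4 false calls, the Sst fit over 14176 genes 22% and 56% with 2, and the Isl1 fit over 14008 genes 9% and 39% with 1. The Nr2f2 fit over 13708 genes recovered 14% and 46% with 3, the Foxp1 fit over 14038 genes 28% and 50% with 4, and the Prkcd against Sst fit over 13292 genes 9% and 47% with 2. The simulated counts came from the model that edgeR assumes, with its fitted dispersions and no difference between samples but depth. The false calls therefore do not measure the error rate in the real counts. Sums and figures were made with matplotlib 3.10.9, pandas 2.3.3, numpy 2.4.6 and Python 3.11.15.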

Additional observations from a re-analysis of the deposited data

Results flagged for a closer look

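In 3 of 46 members positive in at least 1% of neurons, 1 of the 9 samples lay far from the rest in CPM over its inhibitory neurons, with a gap to the next sample beyond Dixon's limit at 95% for 9 samples. Chance alone gives such a gap in about 1 of 20 groups. Sema5a was highest in sample 5, at 53.3 CPM, with 31.5 CPM in the next sample. Plxna1, a plexin-A receptor detected in few neurons, was highest in sample 7, at 14.8 CPM, with 8.71 CPM in the next sample. Sema4f was lowest in sample 9, at 33.0 CPM, with 50.1 CPM in the next sample.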

How the results depend on the processing

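Of the 30 calls on members, 17 passed under every alternative that gave a value and with each sample left out, 22 passed with each sample left out, and none reversed. Counts of called members were 16, 4, 0, 2, 0 and 8 in the order Prkcd, Sst, Isl1, Nr2f2, Foxp1 and Prkcd against Sst. DESeq2 called 25, 8, 5, 10, 2 and 14. At a marker level of 3 per 10000 the Sst count was 7, the Nr2f2 count 0 by edgeR (13 at an unadjusted p under 0.05) and the Foxp1 count 1; there only 2 samples (Isl1), 6 (Nr2f2) and 7 (Foxp1) had enough cells. Thinned counts gave 7 for Sst and 3 for Isl1, and equal cell numbers 2 for Sst and 0 for Nr2f2 by edgeR (5 at an unadjusted p under 0.05). Without Mbp-positive neurons Isl1 had 2 and Nr2f2 1, and with no filter Nr2f2 had 1. The fit without the sample block, which pairs the classes of a sample, called 3 members for Isl1 and was within 1.5 times elsewhere. Leaving out each sample gave 13 to 16, 3 to 5, 0 to 1, 1 to 2, 0 to 0 and 6 to 9. The cause of these changes was not tested. Over all genes DESeq2 called 3269, 1408, 2094, 1190, 517 and 2134, where edgeR called 2037, 554, 585, 224, 33 and 930. Equal cell numbers gave 184, 62, 26, 3 and 528 after Prkcd, and leaving out Mbp-positive neurons 228, 325, 77, 4 and 433. The marker level of 3 gave 5 genes for Isl1, 19 for Nr2f2 and 71 for Foxp1. The calls on Plxnd1, Dcc and Epha3 rest on few counts, and many 2-fold changes went unrecovered in the simulations.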

Other observations

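Sema3a and its receptor gene Nrp1 occurred in the same neuron in 25 cells, 2.08 times the number expected from their shares in each sample, and in excess in 9 of 9 samples. Within Sst-positive neurons they met in 18 of 148 cells, with 16.1 expected, and outside them in 7 of 662 cells, with 3.41 expected. Sema3a and Sema6d, both higher in Sst-positive neurons, met there in 6 cells, 0.750 times the number expected, and Nrp1 and Sema6d in 11, with 12.3 expected. These pairs were chosen after the values were seen and were not tested.

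Sst-positive neurons were also divided by the peptide genes Crh, Tac2 and Nts. Of the 86 with at least 1 of these, 45.3% were positive for Nrp1, 27.9% for Sema3a and 18.6% for Sema6d. Of the 62 with none, 35.5%, 32.3% and 19.4% were positive. The division was made after the values were seen, and the differences were not tested.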
